A study of Mus musculus with 12 samples.

Results

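The genes described are the 8 mouse ABC (ATP-binding cassette) transporters of drugs and conjugated compounds, Abcc1, Abcc2, Abcc3, Abcc4, Abcc5, Abcg2, Abcb1a and Abcb1b, found by gene symbol among the 24318 genes of the deposited table. RNA was measured in immortalized mouse embryonic fibroblasts in which Maff, Mafg and Mafk, the 3 small Maf genes, are deleted; every library, the controls included, carries these 3 deletions. The 4 groups hold 3 libraries each: mock cells given vehicle or diethyl maleate (DEM), and T-N2G cells given either, where T-N2G is a heterodimer of Nrf2 and MafG that are tethered to each other. DEM was given at 100 µM for 12 h, and vehicle for the same 12 h. The labels give neither the promoter or vector that drives T-N2G nor whether the cells are a clone or a pool, and they do not say that replicates were separate cultures, so p-values measure only the spread between these libraries.

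Nrf2 is a transcription factor that is held low by Keap1 and set free when electrophiles such as DEM, which consumes glutathione, react with Keap1. It binds DNA as a heterodimer with a small Maf protein, at antioxidant response elements near genes of glutathione synthesis, conjugation and export. The transporters described here form the export step: they use ATP to move glutathione, glucuronide and sulfate conjugates, cyclic nucleotides, prostanoids, leukotrienes and unmodified drugs out of the cell.

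The motif searched was TGACNNNGC, the core of the antioxidant response element, on both strands of windows from 250 bases before to 50 bases after each RefSeq start (GRCm38.p6). It was present in 12.392% of all 32851 windows. RefSeq windows were matched for 6 of the 8 genes, Abcc1 and Abcc3 being the others. Abcc4, which of the genes described had the largest log2 fold change with DEM in T-N2G cells, has 2 starts, and the window at each holds 1 match. The 120 bases before each start are shown because the match lies just ahead of it, 5′ to 3′ on the gene's strand (minus), with the match in capitals; at start 1 it is on the opposite strand and therefore reads as the reverse complement.
Abcc4 start 1, chr14:118706220-118706339: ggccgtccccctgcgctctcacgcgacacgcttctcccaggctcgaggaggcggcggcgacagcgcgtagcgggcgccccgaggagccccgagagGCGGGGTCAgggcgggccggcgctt
Abcc4 start 2, chr14:118676932-118677051: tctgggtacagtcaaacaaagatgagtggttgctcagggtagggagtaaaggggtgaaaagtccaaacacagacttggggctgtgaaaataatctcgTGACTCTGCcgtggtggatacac

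The Abcc2 window held 1 match, with its first base 98 bases before the start, and the Abcb1a window held 1, 27 bases after it; both genes were close to 0 in these cells. No match was in the windows of Abcc5, Abcg2 (3 windows) or Abcb1b. TGACTCAGC, a case of this motif with every base fixed, was found in 0.454% of all windows and in none of the members' windows. A match describes letters only, and binding was not measured here.

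Libraries held 18863560 to 23095692 gene-assigned fragments. Nfe2l2, which encodes Nrf2, was at 47.4 to 66.7 CPM (counts per 1e6 fragments, on effective library sizes) in the 6 mock libraries and 454 to 701 in the 6 T-N2G libraries, and Mafg at 0.472 to 0.932 and 95.7 to 161, as the labels imply. Replicate 2 had the lowest Nfe2l2 and Mafg of both T-N2G groups. Maff and Mafk read at 1.42 to 5.69 CPM in all 12 libraries, and whether those fragments lie in the deleted parts was not tested. Of 12 fibroblast markers, summed at 11820 to 18965 CPM, Fn1 was the highest, while Fap and Lum were near 0. The lists for other cell types hold 6 genes each: hepatocyte markers summed to at most 0.382 CPM, leukocyte markers to at most 2.65 and endothelial markers to 4.95 to 15.5. Neural markers summed to 363 to 555 CPM, mostly Nes (mean 406) and Map2 (47.8), with Gfap and Sox10 near 0. Epithelial markers summed to 68.5 to 143 CPM, nearly all Krt19 (mean 99.5), with Epcam and Krt18 near 0. The 4 Y-linked genes examined summed to 11.5 to 16.7 CPM in mock and 20.9 to 24.4 in T-N2G libraries, without overlap. For these genes alone, CPM is on total fragments and not on effective library sizes. The cell populations thus differ in more than the Nrf2 and Mafg signal. The part of this difference in the T-N2G over mock values was not tested. In bulk RNA, fewer expressing cells and less RNA per cell cannot be told apart.

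The genes expressed well enough to be tested were 5 of the 8, Abcc1, Abcc4, Abcc5, Abcg2 and Abcb1b, among 12469 tested genes in all. On the per-length FPKM scale, Abcc1 was the highest in every group. In mock vehicle cells Abcc1 stood at 20.5 ± 2.75 FPKM (SD, n = 3), Abcc5 at 19.5 ± 1.59, Abcg2 at 19.3 ± 0.415, Abcb1b at 16.1 ± 2.03 and Abcc4 at 4.17 ± 0.222. The ranges of Abcc1 and Abcc5, and of Abcc5 and Abcg2, overlapped there, while Abcc4 lay below the other 4 without overlap. With T-N2G and DEM the order became Abcc1 (60.7 ± 9.05 FPKM), Abcc5 (18.5 ± 1.38), Abcb1b (16.6 ± 1.55), Abcc4 (14.4 ± 1.58) and Abcg2 (12.1 ± 0.748). Abcc1 was then clear of the next gene, and Abcc4 lay above Abcg2 without overlap but overlapped Abcb1b.

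Abcc1, the multidrug resistance protein that exports glutathione conjugates and leukotriene C4, rose with DEM in T-N2G cells. Its levels in replicates 1, 2 and 3 were 135, 104 and 117 CPM in mock vehicle and 134, 119 and 129 in mock DEM. T-N2G cells had 169, 127 and 170 CPM with vehicle and 362, 297 and 399 with DEM. The T-N2G DEM libraries were all above the other 9, the mock groups overlapped, and replicate 2 of T-N2G vehicle lay within the mock range. DEM raised Abcc1 in T-N2G cells by 1.18 ± 0.14 (log2 fold change ± SE), 2.27-fold, with an adjusted p of 0.000254 (edgeR's quasi-likelihood test, Benjamini-Hochberg over all genes tested). In mock cells the log2 fold change was 0.10 ± 0.14 (95% interval -0.20 to 0.40; adjusted p = 0.668). Under DEM, T-N2G cells had 2.77-fold more Abcc1 RNA than mock cells (log2 1.47 ± 0.14; edgeR adjusted p = 3.95e-05; higher in 3 of 3 same-numbered pairs). Without DEM the ratio was 1.31 (log2 0.39 ± 0.14; higher in 3 of 3 pairs), which did not pass (edgeR adjusted p = 0.560) but did once the replicate number was a block (adjusted p = 0.000788).

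Abcc4, which exports cyclic nucleotides, prostaglandins and conjugated steroids, had a lower starting level than Abcc1. Its log2 fold change with DEM in T-N2G cells was larger than that of Abcc1. The 95% intervals overlapped (1.28 to 1.65 for Abcc4, 0.89 to 1.48 for Abcc1), and the 2 genes were not compared by a test. Replicates 1, 2 and 3 read 24.3, 23.0 and 21.8 CPM in mock vehicle, and 23.7, 23.7 and 23.9 in mock DEM. T-N2G cells had 28.9, 26.8 and 30.9 CPM with vehicle and 79.3, 71.6 and 88.6 with DEM. The 3 T-N2G DEM libraries stood far above the rest, the T-N2G vehicle libraries were all above the 6 mock libraries, and the mock groups overlapped. DEM raised Abcc4 2.77-fold in T-N2G cells (log2 1.47 ± 0.08; edgeR adjusted p = 5.30e-06). In mock cells the log2 fold change was 0.04 ± 0.09 (95% interval -0.14 to 0.23; adjusted p = 0.767). Under DEM the T-N2G to mock ratio was 3.36 (log2 1.75 ± 0.08; edgeR adjusted p = 1.62e-07; 3 of 3 pairs). Under vehicle it was 1.25 (log2 0.33 ± 0.09; 3 of 3 pairs), with an edgeR adjusted p of 0.245, and 0.00947 with the replicate block. That blocked call was lost without replicate 3 of mock vehicle (adjusted p = 0.101) or replicate 3 of T-N2G vehicle (adjusted p = 0.0753).

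**Figure D1:**
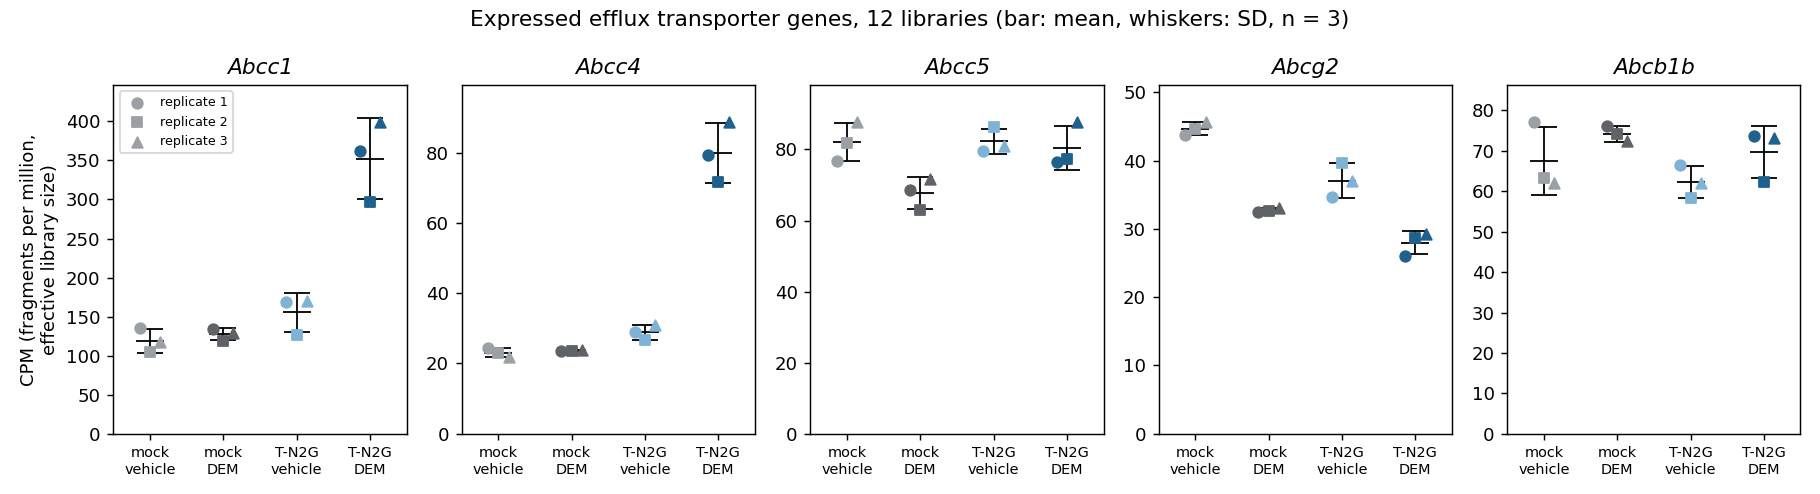
Levels of the 5 tested transporter genes in CPM (vertical axes, each starting at 0) by group (horizontal axes); symbols mark the replicate number, the bar is the mean and the whiskers the SD of 3 libraries. The T-N2G DEM libraries stand above all others for Abcc1 (297 to 399 CPM) and Abcc4 (71.6 to 88.6 CPM), and those of Abcg2 are the lowest.

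Whether the response to DEM differed between T-N2G and mock cells was tested as the difference of the log2 effects. The difference was 1.42 ± 0.12 for Abcc4 (edgeR adjusted p = 0.000282) and 1.08 ± 0.19 for Abcc1 (adjusted p = 0.0311), positive in 3 of 3 replicate numbers for both. By replicate number it was 1.49, 1.38 and 1.39 for Abcc4 and 1.11, 1.04 and 1.08 for Abcc1. The Abcc1 call was lost in 10 of 12 fits that left out 1 library (adjusted p up to 0.113; all but those without replicate 2 of mock vehicle or of T-N2G DEM), and with replicates 1 and 2 alone (adjusted p = 0.784). With the replicate block it stood at 3.00e-07, and no left-out library ended it. The other 3 tested genes had differences of 0.24 ± 0.11 (Abcc5), 0.04 ± 0.09 (Abcg2) and 0.02 ± 0.13 (Abcb1b), each with an edgeR adjusted p of 1.00.

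Abcg2, which exports urate, porphyrins, sulfate conjugates and many drugs, fell with DEM in both cell populations. Replicates 1, 2 and 3 read 43.7, 44.6 and 45.6 CPM in mock vehicle, and 32.4, 32.6 and 33.1 in mock DEM. In T-N2G cells they read 34.6, 39.6 and 37.0 CPM with vehicle and 26.1, 28.7 and 29.2 with DEM. No 2 of the 4 groups overlapped. With DEM the log2 fold change was -0.45 ± 0.07 in mock cells, 1.36-fold lower (edgeR adjusted p = 0.00207), and -0.41 ± 0.07 in T-N2G cells, 1.33-fold lower (adjusted p = 0.00227). The difference between the 2 effects had a 95% interval of -0.16 to 0.25. T-N2G cells were lower than mock cells by a log2 fold change of -0.27 ± 0.07 in vehicle and -0.23 ± 0.07 in DEM, lower in all 3 pairs of each. Neither passed in the fit without the block (edgeR adjusted p = 0.192 and 0.101), and both did with it (adjusted p = 0.00457 and 0.00838).

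Abcc5, an exporter of cyclic nucleotides, fell with DEM in mock cells. Replicates 1, 2 and 3 read 76.8, 81.8 and 87.6 CPM in mock vehicle, and 68.7, 62.9 and 71.7 in mock DEM. T-N2G cells had 79.6, 86.2 and 81.1 CPM with vehicle and 76.4, 77.3 and 87.6 with DEM. The mock DEM libraries were the 3 lowest of the 12, and the other 3 groups overlapped. DEM lowered Abcc5 in mock cells by a log2 fold change of -0.28 ± 0.08, 1.21-fold (edgeR adjusted p = 0.0343). That call was lost without any 1 of 4 libraries (replicates 2 and 3 of mock vehicle, replicates 1 and 2 of mock DEM; adjusted p up to 0.136). It held with the replicate block (adjusted p = 0.000647), with each of the 6 libraries left out. In T-N2G cells the log2 fold change was -0.03 ± 0.08 (adjusted p = 0.803). The difference between the effects, 0.24, did not pass in either fit (edgeR adjusted p = 1.00, and 0.132 with the block), so the effects are not shown to differ. Under DEM, the ratio of T-N2G to mock cells for Abcc5 was 1.19 (log2 0.25 ± 0.08; 3 of 3 pairs), with an adjusted p of 0.120, and 0.00376 with the block.

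Abcb1b, one of the 2 mouse P-glycoprotein genes that export hydrophobic drugs, passed no test without the block. Replicates 1, 2 and 3 read 77.1, 63.2 and 62.0 CPM in mock vehicle, and 76.2, 74.2 and 72.3 in mock DEM. T-N2G cells had 66.5, 58.4 and 62.1 CPM with vehicle and 73.6, 62.3 and 73.1 with DEM. All 4 groups lay between 58.4 and 77.1 CPM. The log2 fold changes for T-N2G over mock were -0.11 ± 0.09 in vehicle and -0.09 ± 0.09 in DEM (edgeR adjusted p = 0.978 and 0.748). Those for DEM were 0.14 ± 0.09 in mock cells and 0.16 ± 0.09 in T-N2G cells (adjusted p = 0.349 and 0.265). With the replicate block only the last passed (adjusted p = 0.0354), and it was lost in 5 of 6 fits without 1 library, all but that without replicate 2 of T-N2G DEM (adjusted p up to 0.268). Abcb1b and Abcb1a are close paralogues, so the split of fragments between them is uncertain. An annotated antisense gene, Gm5106, and 7330423F06Rik on the same strand overlap Abcb1b. Genes are also annotated over Abcc1 (Gm23116, same strand) and Abcc4 (Mir6391, same strand, and Gm49033 and Gm23302, opposite strand). Their effect on the counts was not tested.

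The remaining genes were close to 0 and were not tested. Abcb1a, the other P-glycoprotein gene, had 58 fragments in all, 2 to 8 per library, at most 0.0815 FPKM. Abcc3, a basolateral exporter of glucuronides in liver and gut, had 12 fragments spread over 7 libraries. Abcc2, the canalicular exporter of bilirubin glucuronides, had 7 fragments in 4 libraries. Of those Abcc2 fragments, 5 were in T-N2G cells given DEM (2, 0 and 3 by library) and 0 in T-N2G cells given vehicle, where a count of 0 allows up to 0.0481 CPM over the group (3 fragments; counting error only). At this depth a change in these 3 genes was not detectable.

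**Figure D2:**
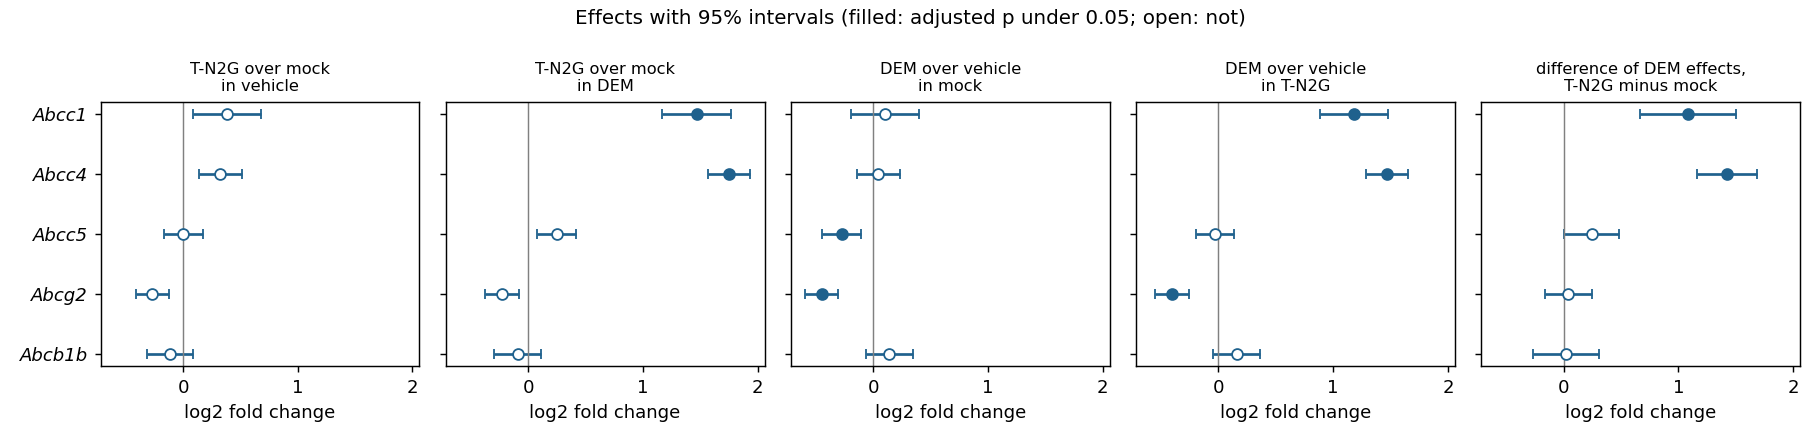
Log2 fold changes (horizontal axes) of the 5 tested transporter genes (rows) in the 5 contrasts; bars are 95% intervals, filled points have an adjusted p under 0.05. Abcc1 and Abcc4 lie far above 0 wherever T-N2G and DEM are combined, and Abcg2 lies at -0.45 and -0.41 for DEM in mock and T-N2G cells.

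For T-N2G over mock in vehicle, 0 of 5 tested transporter genes passed in edgeR, where 0.313% of all tested genes did. With the replicate block 2 rose and 1 fell, against 6.3% of all genes. Under DEM, 2 rose and 0 fell, against 3.71% of all genes, and with the block 3 rose and 1 fell, against 19.6%. DEM in mock cells lowered 2 and raised 0, where 13.9% of all genes passed, and with the block the count was the same against 42.8%. DEM in T-N2G cells raised 2 and lowered 1, against 17.6% of all genes, and with the block raised 3 and lowered 1, against 45%. The difference of DEM effects passed for 2, both positive, against 0.433% of all genes, and for 2 with the block, against 2.8%. The median log2 fold change of the 5 was 0.00, 0.25, 0.04, 0.16 and 0.24 in these contrasts in turn, and that of all tested genes lay between -0.01 and 0.00 in each. These contrasts share groups of libraries and are not independent of each other.

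Summed over the 8 genes, the FPKM level was 79.7 ± 4.24 with vehicle and 74.1 ± 2.92 with DEM in mock cells, and 82.8 ± 4.60 and 122 ± 13.4 in T-N2G cells (SD, n = 3). The T-N2G DEM libraries, at 109 to 135, did not overlap the others, which lay between 70.8 and 86.0. Under DEM, the T-N2G mean exceeded the mock mean by 48.3 FPKM, of which Abcc1 made up 80.3% and Abcc4 20.9%. Abcc5 made up 5.42%, and Abcg2 and Abcb1b, being lower, -4.29% and -2.31%. The share of Abcc1 in the sum was 25.7 ± 2.11% in mock cells with vehicle and 49.5 ± 2.15% in T-N2G cells with DEM, and that of Abcc4 5.25 ± 0.319% and 11.8 ± 0.203%. Over the same pair of groups the share of Abcg2 went from 24.3 ± 1.51% to 9.96 ± 1.25%.

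**Figure D3:**
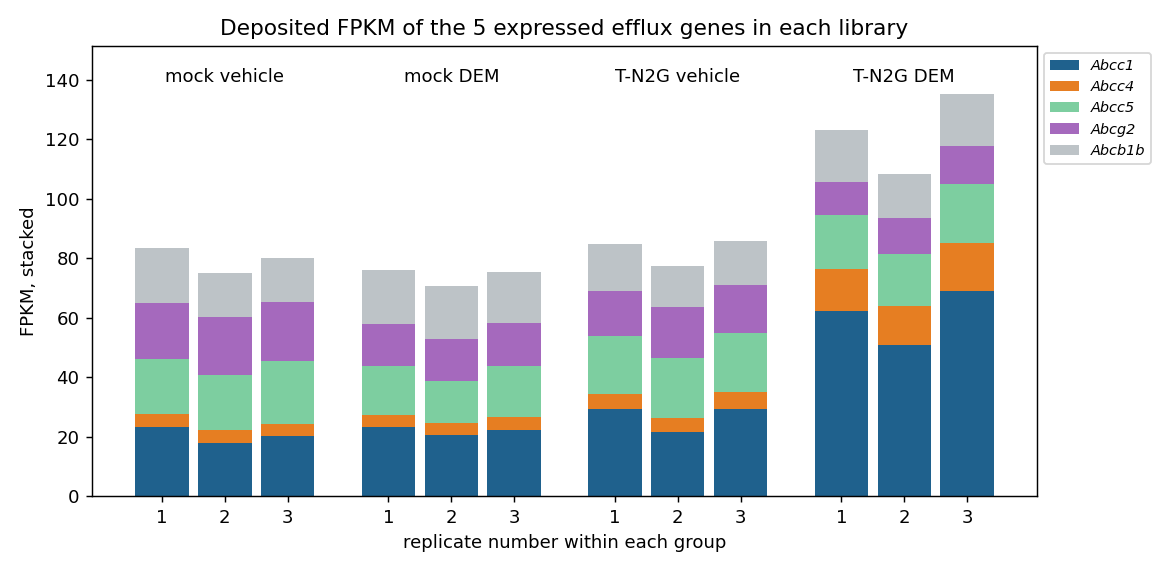
Deposited FPKM of the 5 expressed transporter genes (vertical axis, stacked from 0) in each library (horizontal axis, replicate number within each group). Abcc1 and Abcc4 make the T-N2G DEM stacks the tallest, at 109 to 135 FPKM, while the Abcg2 segment is the thinnest there.

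Other ABC genes give the setting for these transporters. Of 45 others found by symbol, 24 were tested; 1 rose and 0 fell for T-N2G over mock in vehicle, and 2 rose and 0 fell in DEM. DEM raised 0 and lowered 2 of them in mock cells, and raised 3 and lowered 1 in T-N2G cells. With the replicate block these counts were 1 and 1, 3 and 3, 3 and 6, and 6 and 3. For T-N2G over mock, 0.313% of all genes passed in vehicle and 3.71% in DEM (6.3% and 19.6% with the block). For DEM, the 2 and 4 of 24 called are smaller shares than the 13.9% and 17.6% of all genes, and the 9 and 9 called with the block are smaller shares than 42.8% and 45%. Among all 29 tested ABC genes, Abcc4 ranked 2 and Abcc1 ranked 4 by log2 fold change for T-N2G over mock in DEM, and they ranked 2 and 3 for DEM in T-N2G cells. Abca8b, from a family of lipid transporters, was first in both. It had only 4 fragments in mock DEM and 132 in T-N2G DEM (log2 5.03 ± 0.46; edgeR adjusted p = 3.60e-05). Its difference of DEM effects, 2.29 ± 0.87, did not pass (adjusted p = 1.00, and 0.308 with the block). Abcb6, which transports porphyrins, went opposite ways: DEM lowered it in mock cells (log2 -0.54 ± 0.11; edgeR adjusted p = 0.00746) and raised it in T-N2G cells (log2 0.82 ± 0.10; adjusted p = 0.000356). Its difference of DEM effects was 1.36 ± 0.15 (adjusted p = 0.00121). Abcb8, a mitochondrial transporter, fell with DEM in both populations (log2 -0.67 ± 0.16 in mock, -0.74 ± 0.17 in T-N2G cells; edgeR adjusted p = 0.0218 and 0.0113), as Abcg2 did.

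**Figure D4:**
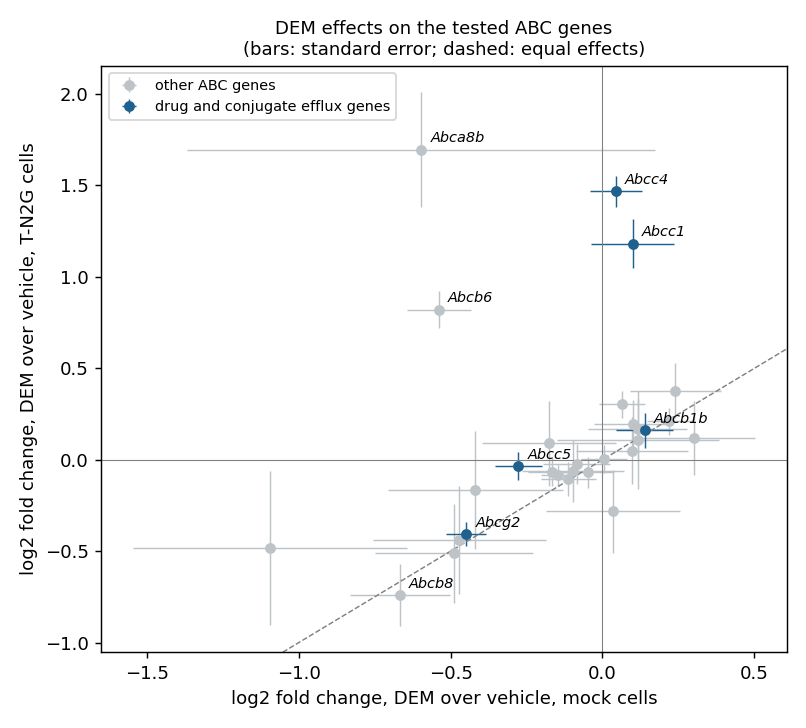
Log2 fold change for DEM in mock cells (horizontal axis) against that in T-N2G cells (vertical axis) for the 29 tested ABC genes; bars are standard errors and the dashed line marks equal effects. Abcc4 (0.04 and 1.47), Abcc1 (0.10 and 1.18), and Abcb6 (-0.54 and 0.82) lie far above the line, as does Abca8b, whose difference of effects did not pass, while Abcg2 and Abcb8 lie low along it.

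The genes that make the conjugates exported by these transporters were counted from lists. Of 27 genes of glutathione synthesis and conjugation, 20 were tested. For T-N2G over mock 4 rose in vehicle and 10 in DEM, with 0 lower in each, and the medians of the 20 were 0.41 and 0.43. Of all tested genes, 0.313% and 3.71% passed in these contrasts. DEM raised 2 in mock cells and 10 in T-N2G cells, with 0 lower, and the difference of DEM effects passed for 5. Of all tested genes, 13.9%, 17.6% and 0.433% passed in turn, so the 2 of 20 in mock cells is the smaller share there. With the block, T-N2G over mock gave 8 higher and 0 lower in vehicle and 10 higher and 1 lower in DEM. The shares of all genes were then 6.3% and 19.6%. With DEM, 3 then rose and 2 fell in mock cells, against 42.8% of all genes. In T-N2G cells 10 rose and 3 fell, against 45%, so some of these genes were lower in the paired fit. The difference of DEM effects then passed for 6, all positive, against 2.8% of all genes. Gclc and Gclm encode the subunits of glutamate-cysteine ligase, which makes the first step of glutathione synthesis. Gclc went from 42.2 ± 3.04 CPM in mock DEM to 236 ± 27.0 in T-N2G DEM and Gclm from 49.5 ± 1.97 to 273 ± 47.7 (log2 2.48 ± 0.12 and 2.46 ± 0.12). Slc7a11, the cystine carrier, rose with DEM in mock cells (log2 0.68 ± 0.19, edgeR adjusted p = 0.0328), as did Gss, glutathione synthetase (log2 0.51 ± 0.07, adjusted p = 0.00155). Slc7a11 and Gss were the 2 of the 20 that passed there. The median log2 change of the 20 in mock cells was 0.03, beside 0.10 for Abcc1 and 0.04 for Abcc4. Gsta4, a glutathione transferase, had a difference of DEM effects of 3.36 ± 0.57 (adjusted p = 0.0258).

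Of 17 genes that break down glutathione or its conjugates, 10 were tested, and DEM raised 3 and lowered 1 in mock cells and raised 2 in T-N2G cells (3 higher and 2 lower with the block). Chac1, which cleaves glutathione inside the cell, rose with DEM in mock cells (log2 1.23 ± 0.14; edgeR adjusted p = 0.000598). Under DEM it was the 1 gene of this list that passed for T-N2G over mock, where it was lower (log2 -0.70 ± 0.13; adjusted p = 0.00955). Of 31 genes of glucuronidation and sulfation, 7 were tested. With T-N2G under DEM 2 rose, where 3.71% of all genes passed. DEM raised 2 and lowered 1 in T-N2G cells, against 17.6% of all genes (4 and 1 with the block, against 45%). Ugt1a6b rose with T-N2G under DEM (log2 2.87 ± 0.38; edgeR adjusted p = 0.000791), as did Ugt1a6a, although these 2 genes share exons and their split is uncertain. Ugdh, which makes the glucuronide donor, fell with DEM in both populations (log2 -0.23 ± 0.07 and -0.33 ± 0.07; adjusted p = 0.0474 and 0.00799), and Papss2, which makes the sulfate donor, rose in both (log2 0.31 ± 0.07 and 0.26 ± 0.07; adjusted p = 0.0111 and 0.0220).

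Carriers of organic ions, most of which work in uptake, were counted from a list of 36, of which 10 were tested. For T-N2G over mock 0 passed in vehicle and 1 rose in DEM (1 higher, and 2 higher and 1 lower, with the block), and DEM lowered 1 in each population (with the block 1 higher and 1 lower in mock, 2 and 2 in T-N2G cells). Of all tested genes, 0.313% passed for T-N2G over mock in vehicle and 3.71% in DEM. For DEM, 13.9% passed in mock and 17.6% in T-N2G cells. With the block these shares were 6.3%, 19.6%, 42.8% and 45%. Slco2a1, the prostaglandin uptake carrier, fell with DEM in mock cells (log2 -0.29 ± 0.06; edgeR adjusted p = 0.00720) and in T-N2G cells (log2 -0.39 ± 0.06; adjusted p = 0.000922). Slc22a4 rose for T-N2G over mock in DEM (log2 1.76 ± 0.35; adjusted p = 0.0122) from about 0.308 CPM. Of 15 genes that make or degrade leukotrienes, prostaglandins and cyclic nucleotides, 12 were tested and 1 passed for T-N2G over mock in DEM: Ptgs1, a cyclooxygenase, was lower (log2 -1.08 ± 0.13; adjusted p = 0.000396). DEM in T-N2G cells lowered the phosphodiesterase gene Pde4b (log2 -0.62 ± 0.13; adjusted p = 0.00836) and raised Pde8a (log2 0.54 ± 0.13; adjusted p = 0.0164) and Ptges3. In mock cells it raised Pde4a and Ptgs1. With the block, 4 of the 12 rose and 2 fell for T-N2G over mock in DEM, 1 fell in vehicle, and with DEM 4 rose and 1 fell in each population. The shares of all genes given above stand beside these counts too. Those with DEM and the block are near 42.8% and 45%.

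Among 16 reported regulators of efflux genes, 11 were tested. DEM raised 2 and lowered 1 in each population, where 13.9% of all tested genes passed in mock and 17.6% in T-N2G cells. With the block DEM raised 3 and lowered 4 in mock cells, against 42.8%, and raised 4 and lowered 2 in T-N2G cells, against 45%. Ahr, the aryl hydrocarbon receptor, for which Abcg2 is a reported target, fell with DEM in mock cells (log2 -0.75 ± 0.11; edgeR adjusted p = 0.00225) and in T-N2G cells (log2 -0.54 ± 0.11; adjusted p = 0.00752), the same direction as Abcg2; a link was not tested. Keap1 rose with DEM in T-N2G cells (log2 0.50 ± 0.07; adjusted p = 0.000740) and Rxrb rose with DEM in both populations (log2 0.47 ± 0.09 in mock, 0.38 ± 0.09 in T-N2G cells; adjusted p = 0.00693 and 0.0141). For T-N2G over mock in DEM, 1 of the 11 was higher and 1 lower, where 3.71% of all genes passed. Keap1 was higher (log2 0.39 ± 0.07, edgeR adjusted p = 0.00618). Nfe2l1, an Nrf2 relative, was slightly lower in T-N2G than in mock cells under DEM (log2 -0.22 ± 0.05, edgeR adjusted p = 0.0275). The difference of DEM effects passed for 0 of these regulators, and for 1 with the block. DEM raised Nfe2l1 in mock cells (log2 0.26 ± 0.05, edgeR adjusted p = 0.00660). Of the fibroblast markers, Col1a1 fell with DEM in T-N2G cells (log2 -0.54 ± 0.10; adjusted p = 0.00487), the 1 of 10 tested that passed. With the block 1 of the 10 rose and 9 fell there, where 45% of all genes passed, and 1 rose and 7 fell with DEM in mock cells, against 42.8%. Of 2 tested epithelial and 2 tested endothelial markers, both of each fell with DEM in T-N2G cells with the block, and 1 of each fell in mock cells; without the block 0 passed. Abcg2 fell in the same contrasts, and the part of these markers in its fall was not tested.

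Likeness of pattern was described by Pearson's r of log2 CPM over the 12 libraries, among 11102 genes; the libraries share group and replicate structure, so no p is given. Abcc4 was most like Srxn1 (r = 0.997), Gclm (0.997) and Tmem55a (0.990), and Abcc1 most like Gclc (0.988), Cep76 (0.987) and Gclm (0.986). Srxn1, which encodes sulfiredoxin, stood at 31.7 and 34.1 CPM in mock cells with vehicle and DEM and at 46.0 and 209 in T-N2G cells, the order of group means that Abcc4 has. Abcc1 and Abcc4 had an r of 0.984 with each other. Abcg2 was most like Mkx (0.974), Flrt3 (0.966) and Sepsecs (0.966), Abcc5 most like Galc (0.938), Kif22 (0.918) and Adi1 (0.906), and Abcb1b most like Degs1 (0.924), Med7 (0.918) and Vps54 (0.916).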

How the data were processed

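Polyadenylated RNA from 12 libraries was prepared with RNeasy Mini and a strand-specific SureSelect kit, per the labels. The submitters' processing notes name Cuffdiff 2.1.1, TopHat2 2.0.8b, the mm9 build and bcl2fastq 2.16.0.10; the strand setting of counting is not given in the sources used here. The deposited table holds estimated counts of fragments per gene and library, of which 98.3% were whole, and FPKM, which is normalized for length and depth; the authors made both, and 2 further value columns were not used. Counts were rounded and analysed with edgeR 4.0.16 in R 4.3.3 (TMM, filterByExpr with a minimum count of 10 and total of 15, 12469 of 24318 genes kept, all 12 libraries in 1 quasi-likelihood fit, Benjamini-Hochberg, threshold 0.05); standard errors are the log2 fold change over the root of F. The script was tested on simulated data. Alternatives used DESeq2 1.42.0 and limma 3.58.1 with log2(FPKM + 1) or log2(FPKM + 0.1).

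The same replicate numbers stand in every group. Deviations from group means correlated at 0.361 to 0.631 in all 18 same-numbered library pairs and at -0.422 to -0.00363 in the other 36. Deviations within a group cancel out, so positive values in the 18 push the 36 below them, and the 36 are not separate evidence. From the 18 pairs the numbers were taken to pair the samples, on the data and not on a label. For the transporter genes the replicate block value is given where it changes a call. For other genes and for list counts it is given only in part. Replicates 1 and 2 carry library codes of 1 number run and replicate 3 of another, per the labels. The build of the RefSeq windows is not the build of the counts, and no coordinates were moved between them.

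The 8 genes and all lists were chosen with earlier results of these data known. Named were all 8, Nfe2l2, Mafg, Maff and Mafk, up to 3 called genes of smallest adjusted p per list and contrast (some left out for brevity), the 3 most alike genes with at least 2 CPM in a group mean, and the highest gene of the fibroblast, neural and epithelial markers. The 2 lowest fibroblast markers were added after their values were seen. Map2, Gfap, Sox10, Epcam and Krt18 were also named outside this rule. Libraries held 18863560 to 23095692 fragments; intervals cover counting error or library spread as stated.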

Additional observations from a re-analysis of the deposited data

Results flagged for a closer look

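The effect of DEM differed between T-N2G and mock cells for 2 of the transporter genes by a direct test of the difference of log2 fold changes. For Abcc1 the difference was 1.082 (edgeR adjusted p = 0.03111; 3 of 3 replicate numbers). That call was lost in 10 of 12 fits that left out 1 library (adjusted p up to 0.113) and with replicates 1 and 2 alone (adjusted p = 0.784), and held in all 12 with the replicate block. For Abcc4 it was 1.423 (adjusted p = 0.0002825; 3 of 3), and no left-out library ended that call.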

How the results depend on the processing

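The Abcc1 and Abcc4 calls for T-N2G over mock in DEM and for DEM in T-N2G cells held in all 22 alternatives of each, and the Abcc4 difference of DEM effects in all 33. The number of transporter genes called was 0 for T-N2G over mock in vehicle and became 3 with the replicate block and 1 with replicates 1 and 2 alone and the block; it was 2 in DEM and became 4 and 4. Leaving out 1 library with the block, which was added after seeing the data, gave 2 to 3 in vehicle and 4 to 4 in DEM. For DEM in mock cells the count of 2 became 1 with no filter on low counts, 1 with only the libraries compared, 0 with replicates 1 and 2 alone, and 1 to 2 without each library. For the difference of DEM effects the count of 2 became 1 with limma on log2(FPKM + 0.1), 1 with replicates 1 and 2 alone, and 1 to 2 without each library. Signs turned only for uncalled values when a library was left out. Without the block, Abcc5 in vehicle ranged from -0.0440 to 0.0549, the Abcb1b difference of DEM effects from -0.0837 to 0.0878 and the Abcg2 difference from -0.00294 to 0.0915. With the block, the turned values were -0.0263 and -0.0547 for Abcc5 in vehicle (without replicate 1 of mock vehicle and replicate 2 of T-N2G vehicle), 0.0216 for Abcc5 with DEM in T-N2G cells (without replicate 2 of T-N2G vehicle), -0.0476 for Abcc4 with DEM in mock cells (without replicate 3 of mock vehicle), and, for the Abcb1b difference in 5 of 12 fits, -0.0483, -0.0318, -0.00674, -0.000925 and -0.0510. The block changed no call of the transporter genes other than those given beside each gene. The Abcg2 calls for DEM were lost only with replicates 1 and 2 alone (adjusted p = 0.0659 in mock and 0.0531 in T-N2G cells). Except where fewer libraries or a different set of genes entered, the cause was not tested. Depth limits Abcc2, Abcc3 and Abcb1a, which have too few fragments to test.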
